A study of Mus musculus with 9 samples.

Results

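The submandibular gland of the mouse was compared between 90 and 30 days after a dose of 10 Gy, to describe the net change over that interval across every gene with adequate counts. The comparison rests on 6 of the 9 bulk RNA sequencing libraries of the series, chosen by the time point in the sample titles: 3 libraries at 30 days and 3 at 90 days. The other libraries, 3 at 60 days, entered the fit to share its estimate of the spread, and their values are given beside the results. All 9 samples carry the label WT and the label 10 Gy radiation, so the 30-day glands are irradiated glands and not an untreated control. RNA came from 4 sections, each 50 µm thick, of a gland. The labels give no strain, age, sex, batch or hour of harvest, and time since irradiation and the age of the mice cannot be told apart. Non-irradiated glands, which the protocol mentions, were not analysed here. The title of the study concerns muscarinic signalling, calcium and ATP metabolism in degenerated glands, and its design text concerns the loss of gland function. The labels do not say that the 3 samples of a group came from separate mice, so p-values measure the spread between these samples.

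The rodent submandibular gland has serous-like acini, which secrete water, salts and mucin-like proteins, and ducts, which reabsorb sodium and chloride. A stretch of duct found in rodents, the granular convoluted tubule, stores kallikreins, epidermal growth factor and renin in granules, and its size is known to follow androgen and thyroid hormone. Radiation damage is sensed through p53, and in irradiated glands the loss of acinar secretion is the lasting defect.

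Total counts ran from 16541396 to 17179500 in the 30-day libraries and from 20410818 to 26065856 in the 90-day libraries, and a floor of 3 counts corresponded to 0.115 to 0.181 CPM over these and the 60-day libraries. CPM are counts relative to library size after TMM scaling (trimmed mean of M-values). Acini were plainly present: Mucl2, which encodes an abundant mucin-like secretory protein of the acini, took 37.1% to 42.8% of all counts at 30 days and 31.4% to 38.6% at 90 days. Counts of the Y-linked genes Kdm5d, Uty, Ddx3y and Eif2s3y were 0 in all 9 libraries, and Xist had 3996 to 9239 counts. A pair of libraries stood apart, each by a different measure. The 30-day sample 1 had the lowest TMM factor (0.824, against 0.977 to 1.19 in the other 5 libraries compared) and lay 0.583 and 0.614 from its group mates in root mean square log2 difference, where these differed by 0.499. The 90-day sample 2 held 5939 counts of the immunoglobulin light chain gene Igkc, against at most 1285 in any other library, and 2556 counts of the haemoglobin gene Hba-a1, against at most 902. By root mean square log2 difference 90-day sample 2 did not stand apart, at 0.478 and 0.477 from its group mates, which differed by 0.483. In bulk RNA, fewer cells of a type and less RNA per cell cannot be told apart.

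Over the interval 544 of 15224 genes tested passed an adjusted p of 0.05 (edgeR quasi-likelihood test, Benjamini-Hochberg), which is 3.57% of them. Of these, 275 were higher at 90 days (1.81% of the genes tested) and 269 were lower (1.77%). The changes were mostly small: the median absolute log2 fold change of the called genes was 0.68, and 129 genes were called with a change of at least 1, of which 95 were higher and 34 lower. The groups of 3 did not overlap in 274 of the 275 higher and 268 of the 269 lower genes. Over all genes tested, the 90-day values lay wholly above the 30-day values in 11.4% and wholly below in 11.8%. Protein-coding genes made up 265 of the higher and 253 of the lower genes, and long non-coding or unclassified genes 5 and 13.

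How the calls divided into rises and falls moved with the scaling, as the plot of the called genes under both scalings shows. Over all genes the median log2 fold change was 0.01 with TMM and 0.24 with library totals alone. Under library totals 440 genes (2.89%) were called, 406 higher (2.67%) and 34 lower (0.223%), so that 92.3% of the calls were rises where TMM gave 50.6%. Leaving the 10 most abundant genes out of the totals gave 597 calls, 212 higher and 385 lower (35.5% rises). Of the 544 calls, 303 were also made under library totals. Under all 10 alternative settings of scaling, filter and model, 165 of the 275 higher genes and 26 of the 269 lower genes were called. Single libraries moved the count further. It was 184 without 30-day sample 1, 190 without 90-day sample 2, 246 without 90-day sample 3 and 333 without 30-day sample 2. The 30-day sample 1 was the highest of its group in 219 of the 269 lower genes and the lowest in 214 of the 275 higher genes. Over all genes tested it was the highest in 5411 and the lowest in 5743 of 15224.

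**Figure D1:**
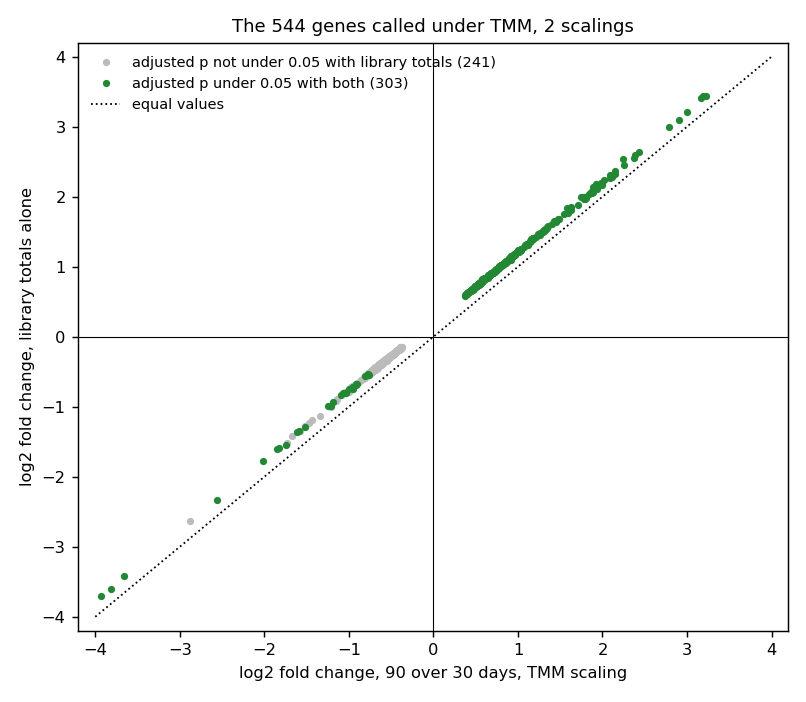
Log2 fold changes (90 over 30 days) of the 544 called genes under TMM scaling (horizontal axis) and under library totals alone (vertical axis). Green points are the 303 genes with an adjusted p under 0.05 in both, and grey points are the 241 that passed under TMM alone, which lie almost all among the falls. The dotted line marks equal values, and every point lies above it.

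**Figure D2:**
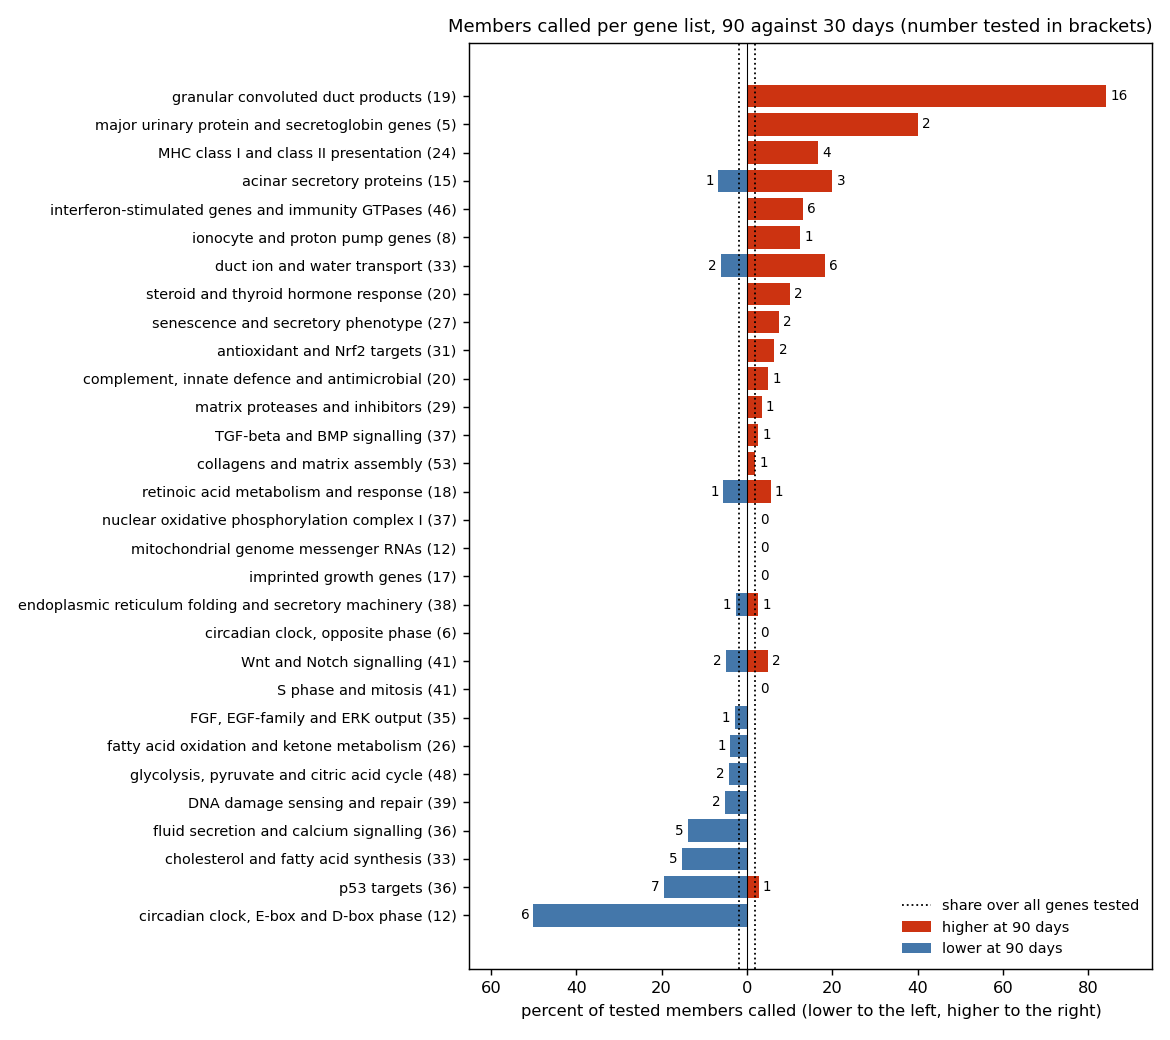
Percent of the tested members of each of 30 gene lists that were called higher (right) or lower (left) at 90 days, with the number called beside each bar and the number tested in brackets. Dotted lines mark the share over all genes tested (1.81% higher, 1.77% lower), and the longest bars are the granular convoluted duct products (16 higher) and the clock genes of the E-box and D-box phase (6 lower).

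Most of the stored products of the granular convoluted ducts rose. Of 19 tested members, 16 were called higher and 0 lower, which is 84.2% beside 1.81% called higher over all genes tested. The median log2 fold change of the members was 1.89, beside 0.01 over all genes tested. Their summed level ran from 24695 to 35712 CPM at 30 days and from 50683 to 75256 CPM at 90 days, with 58249 to 71600 CPM at 60 days. The 30-day sample 1 was the lowest of its group for all 19. Under library totals 17 were called, and 15 were called without 30-day sample 1, 9 without 90-day sample 2 and 11 without 90-day sample 3. The 6 samples of the comparison fitted alone gave 10.

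Egf, a mitogen that is secreted into saliva, measured 811, 1465 and 1698 CPM in 30-day samples 1 to 3 and 4116, 5859 and 6942 CPM in 90-day samples 1 to 3. Every 90-day value exceeded every 30-day value, and the log2 fold change was 2.09 ± 0.26 (SE; adjusted p = 0.00077), a 4.26-fold rise. Ren1, the protease that starts the angiotensin cascade, had 1.70, 3.63 and 4.56 CPM at 30 days and 14.3, 14.1 and 24.1 CPM at 90 days, with 20.5 to 42.5 CPM at 60 days. Its rise of 2.37 ± 0.45 (adjusted p = 0.0358) lost the call in 6 of 9 cases, without any single 30-day sample, 60-day sample 1, 90-day sample 2 or 90-day sample 3 (adjusted p up to 0.113).

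Crisp1 and Crisp3 encode cysteine-rich secretory proteins. Crisp3 measured 1559, 2701 and 2526 CPM at 30 days against 5298, 8883 and 10955 CPM at 90 days (1.89 ± 0.26, adjusted p = 0.00132), and the call held whichever library was left out. Crisp1, far less abundant, went from 1.21, 4.28 and 3.79 CPM to 12.2, 30.8 and 28.1 CPM. Its rise of 2.91 ± 0.48 (adjusted p = 0.0197), 7.49-fold, was lost without 30-day sample 3, 60-day sample 3, 90-day sample 2 or 90-day sample 3 (adjusted p up to 0.058).

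The Klk1b genes encode glandular kallikreins, serine proteases that cleave growth factor precursors and kininogen. They are close paralogs in a cluster on chromosome 7, so reads may be split between them and the value of a single member is uncertain. Klk1b26, the most abundant of them, measured 2173, 4462 and 4158 CPM at 30 days and 9168, 11842 and 14399 CPM at 90 days, with no overlap (1.71 ± 0.25, adjusted p = 0.001). Klk1b5 rose by 1.62 ± 0.19 (adjusted p = 0.000255), from 484, 824 and 841 CPM to 1773, 2278 and 2570 CPM. Both calls held without each library in turn, as did those of Klk1b1, Klk1b4, Klk1b9, Klk1b16 and Klk1b22. Klk1b8 (2.52 ± 0.50, adjusted p = 0.0535) and Klk1b27 (1.99 ± 0.41, adjusted p = 0.0574) did not pass, although their groups did not overlap. Klk1, the tissue kallikrein that is also made outside the granular tubule, differed: it had 16870 to 20892 CPM at 30 days and 17973 to 20694 CPM at 90 days, overlapping values with a log2 fold change of 0.03 ± 0.17 (adjusted p = 0.956). Thus a neighbouring gene of the same cluster did not pass the test while 11 Klk1b genes did, and the difference between them was not tested.

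**Figure D3:**
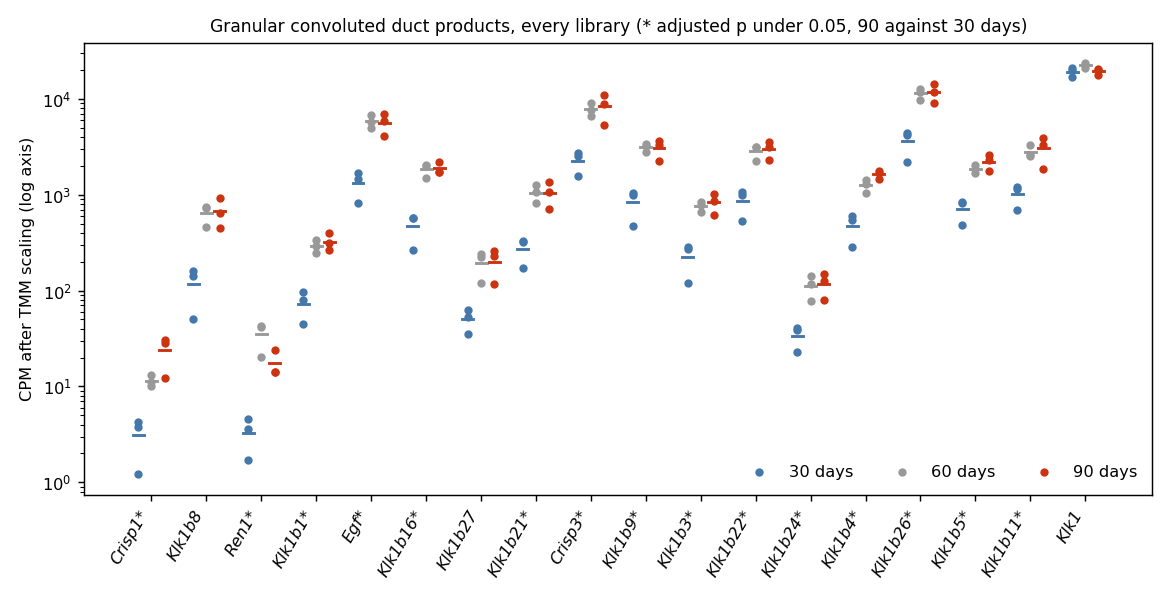
CPM after TMM scaling (log axis) of 18 granular convoluted duct genes in every library, with blue points for 30 days, grey for 60 days and red for 90 days, a bar at each group mean, and an asterisk on the 15 genes with an adjusted p under 0.05. The red points lie above the blue points in every gene except Klk1 at the far right.

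The promoters of the 3 called protein-coding Klk1b genes with the largest rises are shown, since all 3 rose (the pseudogene Klk1b14-ps, at 2.02 ± 0.30, is left out): the 250 bases before the RefSeq start, 5′ to 3′ on the strand of the gene, in GRCm38.p6. Capitals mark the longest run that the 3 share, 27 bases, which is in 6 RefSeq promoters in all.
Klk1b1, chr7:43966501-43966750, plus strand: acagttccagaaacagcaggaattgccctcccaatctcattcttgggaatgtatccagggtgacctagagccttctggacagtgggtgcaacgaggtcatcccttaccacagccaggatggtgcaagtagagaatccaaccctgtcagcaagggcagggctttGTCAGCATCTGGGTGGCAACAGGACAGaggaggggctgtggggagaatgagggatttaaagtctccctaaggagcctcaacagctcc
Klk1b16, chr7:44137040-44137289, plus strand: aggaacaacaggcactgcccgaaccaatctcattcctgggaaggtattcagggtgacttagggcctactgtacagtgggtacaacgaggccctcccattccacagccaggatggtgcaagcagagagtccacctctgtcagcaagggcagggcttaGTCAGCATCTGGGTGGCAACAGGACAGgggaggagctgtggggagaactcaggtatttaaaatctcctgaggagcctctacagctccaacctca
Klk1b21, chr7:44102042-44102291, plus strand: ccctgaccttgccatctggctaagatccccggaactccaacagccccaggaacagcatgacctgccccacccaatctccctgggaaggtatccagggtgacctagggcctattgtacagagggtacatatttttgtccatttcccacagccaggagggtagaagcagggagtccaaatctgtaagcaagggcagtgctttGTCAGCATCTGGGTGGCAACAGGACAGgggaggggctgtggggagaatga
The shared run begins 87, 94 and 50 bases before the RefSeq start of Klk1b1, Klk1b16 and Klk1b21. These distances depend on the annotation. GENCODE starts Klk1b16 at 44136767, so the window shown lies inside that gene, and Klk1b21 at 44102328, beyond the end of its window. Klk1b1, Klk1b16 and Klk1b21 rose by 2.14 ± 0.28 (adjusted p = 0.00439), 1.99 ± 0.26 (adjusted p = 0.00201) and 1.94 ± 0.31 (adjusted p = 0.0121). Klk1b21 lost the call without 90-day sample 2 (adjusted p = 0.0657).

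Outside the granular duct list, the largest rise of all named genes belonged to Mup5, a member of the lipocalin family of major urinary proteins that bind pheromones (ENSMUSG00000058523, chromosome 4, 61831319 to 61835233, minus strand in GRCm38). It had 262, 238 and 236 CPM at 30 days, 900, 918 and 1122 CPM at 60 days and 1956, 2927 and 1699 CPM at 90 days. The interval rise was 3.16 ± 0.18 on the log2 scale (adjusted p = 1.87e-08), 8.94-fold, and the call held under every alternative and without each library. Its family has near-identical members, which limits how its reads can be assigned. Scgb2b24, a secretoglobin of the androgen-binding protein family, was called at a low level (0.213 to 0.535 CPM at 30 days, 1.27 to 1.62 CPM at 90 days; 2.09 ± 0.54, adjusted p = 0.0359), and lost the call in 5 of 9 cases (without 30-day sample 1 or 3 or any 90-day sample; adjusted p up to 0.166). The other 3 tested members of this list were not called, and the remaining major urinary protein genes were under the count filter.

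Proteins of saliva from other cells moved in both directions. Of 15 tested acinar secretory genes 3 were called higher and 1 lower, which is 26.7% beside 3.57% over all genes tested. Log2 fold changes were positive in 10 of the 15 and negative in 5, with a median of 1.17, and 11 had an unadjusted p under 0.05. Over the alternative settings the median ran from -0.41 to 1.41 and the falls from 1 to 4. With single libraries left out the median was 1.06 to 1.27. The summed level of the list went the other way, from 484100 to 685140 CPM at 30 days to 329670 to 477640 CPM at 90 days. Pigr, the receptor that carries IgA across the epithelium into saliva, had 151, 134 and 114 CPM at 30 days and 333, 279 and 287 CPM at 90 days, without overlap (1.17 ± 0.13, adjusted p = 0.000165; 2.25-fold). Amy1, a salivary amylase with near-identical relatives, had 6.52, 7.43 and 8.05 CPM and then 13.9, 14.1 and 14.5 CPM (0.94 ± 0.15, adjusted p = 0.00153). Both held without each library and under library totals. Chia1, an acidic chitinase, stayed under 2 CPM in every library (2.79 ± 0.61, adjusted p = 0.0148) and lost the call without 30-day sample 1, 30-day sample 2 or 90-day sample 2 (adjusted p up to 0.0655).

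The fall in that list was Lpo, lactoperoxidase, an antibacterial enzyme of saliva, with 1260, 903 and 860 CPM at 30 days and 772, 596 and 632 CPM at 90 days (-0.60 ± 0.16, adjusted p = 0.0454). Its call was lost under library totals (adjusted p = 0.21) and without 30-day sample 1 or 2, 60-day sample 2 or 90-day sample 2 or 3 (adjusted p up to 0.258). Mucl2, Prol1 and Pip, abundant acinar products, had log2 fold changes of -0.42 ± 0.26, -0.83 ± 0.24 and -0.60 ± 0.19, none of which passed (adjusted p = 0.447, 0.0621 and 0.0925). Over the 11 tested acinar cell markers, 3 were called lower (Aqp5, Chrm3 and Lpo) and the median log2 fold change was -0.45. These 3 are 27.3% of the list, beside 1.77% called lower over all genes tested. Without 30-day sample 1 or without 90-day sample 2, 0 of the acinar markers were called. Wfdc2, a protease inhibitor of secretory epithelia, rose from 47.4, 62.9 and 68.8 CPM to 97.2, 133 and 101 CPM (0.89 ± 0.16, adjusted p = 0.00878), a call that held without each library.

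Genes of fluid secretion fell where they changed at all. In acini, acetylcholine acts on muscarinic receptors, inositol trisphosphate releases calcium, and calcium opens chloride and potassium channels so that water follows through aquaporin 5. Of 36 tested genes of this pathway 5 were called lower and 0 higher, with 11 at an unadjusted p under 0.05 and a median log2 fold change of -0.14. The 5 calls are 13.9% of the list, beside 1.77% called lower over all genes tested. DESeq2 called 9 lower and limma-voom 7. Under library totals 0 were called and the median was 0.09, against 0.24 for all genes, and the count was 0 without 30-day sample 1, 1 without 90-day sample 2, 2 without 90-day sample 3 and 3 without 30-day sample 2, 60-day sample 2 or 90-day sample 1.

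Chrm3, the main muscarinic receptor of acini, measured 36.7, 32.5 and 30.1 CPM at 30 days and 24.9, 22.3 and 21.4 CPM at 90 days. Every 90-day value was below every 30-day value, and the log2 fold change was -0.53 ± 0.12 (adjusted p = 0.0148; up to 0.101 without 30-day sample 1, 90-day sample 2 or 90-day sample 3). Adrb1, the beta-adrenergic receptor through which sympathetic nerves drive protein secretion, had 164, 117 and 107 CPM and then 79.2, 93.7 and 70.6 CPM, with 57.2 to 76.4 CPM at 60 days (-0.67 ± 0.16, adjusted p = 0.0304). Its call was lost without 30-day sample 1, 60-day sample 2, 90-day sample 1 or 90-day sample 3 (adjusted p up to 0.127). Chrm1, the other muscarinic receptor of the gland, had 5.88 to 6.22 CPM at 30 days and 5.53 to 6.98 CPM at 90 days, overlapping (0.10 ± 0.18, adjusted p = 0.857).

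Of the channels, Aqp5 went from 523, 461 and 453 CPM to 329, 301 and 338 CPM (-0.57 ± 0.12, adjusted p = 0.0113), 0.674 of its 30-day level. The apical calcium-activated chloride channel Ano1 went from 159, 147 and 142 CPM to 106, 95.6 and 122 CPM (-0.47 ± 0.11, adjusted p = 0.0245). The calcium-activated potassium channel Kcnn4 went from 519, 404 and 426 CPM to 354, 293 and 328 CPM (-0.47 ± 0.12, adjusted p = 0.0419). None of the 3 overlapped between groups under TMM. Leaving out 30-day sample 1 or 90-day sample 2 lost the call of Aqp5 (adjusted p up to 0.0721), and Ano1 lost it in 4 of 9 cases, 30-day samples 1 and 2 and 90-day samples 1 and 2 (up to 0.159). Kcnn4 lost it in 6 of 9 cases, each 30-day sample, 60-day sample 2 and 90-day samples 2 and 3 (up to 0.232). Calcium release and pump genes did not pass. Itpr3, an inositol trisphosphate receptor, had a log2 fold change of -0.34 ± 0.12 (adjusted p = 0.117), and Atp2a2, a calcium pump of the endoplasmic reticulum, -0.20 ± 0.10 (adjusted p = 0.333), which under library totals turned to 0.029.

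Ion transport of the ducts showed another picture, with 6 of 33 tested genes called higher and 2 lower (7 and 2 under library totals), and a median log2 fold change of 0.11. The calls are 24.2% of the list, beside 3.57% over all genes tested. The sodium channel subunits Scnn1b and Scnn1g, which carry sodium out of the duct lumen, rose by 0.54 ± 0.12 (adjusted p = 0.0123) and 0.47 ± 0.12 (adjusted p = 0.0383). Scnn1b had 52.9, 68.5 and 75.7 CPM at 30 days and 96.7, 96.8 and 93.1 CPM at 90 days. Kcnj16, an inward rectifier potassium channel subunit, had 24.2, 28.5 and 23.7 CPM and then 38.7, 44.7 and 43.6 CPM (0.73 ± 0.11, adjusted p = 0.001). Kcnk5, a background potassium channel, and Slc4a11, a borate transporter homologue, were the other rises beside Kcns3. Scnn1b lost its call without 30-day sample 1 or 90-day sample 2 (up to 0.0791), Scnn1g and Slc4a11 in 5 of 9 cases each, both of these samples and 90-day sample 3 among them (up to 0.21 and 0.165), and Kcnk5 without 30-day sample 1 or 90-day sample 3 (up to 0.0742). The count of rises was 2 without 30-day sample 1 and 3 without 90-day sample 2 or 90-day sample 3.

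Kcns3, a silent subunit that modifies voltage-gated potassium channels (chromosome 12, 11090202 to 11151056, minus strand), had 1.13, 1.13 and 1.78 CPM at 30 days, 3.59 to 5.88 CPM at 60 days and 6.14, 5.53 and 7.78 CPM at 90 days. This 4.76-fold rise (2.25 ± 0.28, adjusted p = 0.000225) held under every alternative and without each library. In the opposite direction, the potassium channel accessory subunit Kcne1 went from 2.34, 2.67 and 3.97 CPM to 1.08, 0.687 and 0.904 CPM (-1.75 ± 0.34, adjusted p = 0.00684). The water channel Aqp2, known from the collecting duct of the kidney, went from 3.33, 1.78 and 2.6 CPM to 0.877, 0.481 and 0.803 CPM (-1.83 ± 0.40, adjusted p = 0.0145; 0.0876 and 0.102 without 90-day sample 2 or 30-day sample 1). Both falls kept their call under library totals. Among the 8 tested ionocyte and proton pump genes 1 was called, the proton pump subunit Atp6v1g3 (1.87 ± 0.51, adjusted p = 0.0474), and it lost the call without 5 of the 9 libraries (30-day samples 1 and 2, 60-day sample 2, 90-day samples 2 and 3; adjusted p up to 0.242).

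Of 12 tested clock output genes 6 fell. Transcription of this group is driven by CLOCK and BMAL1 through E-boxes and by PAR-bZIP factors such as DBP and TEF through D-boxes, so their level depends on the hour of sampling, which the labels do not give. All 12 tested members had negative log2 fold changes, from -1.26 to -0.30, and the median was -0.78. Dbp, Tef, Per2, Per3, Cry2 and Usp2 were called lower, 6 of 12, which is 50% beside 1.77% called lower over all genes tested. Under library totals 3 were called (median -0.51), and leaving out single libraries gave 4 (90-day sample 2) to 7.

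Dbp, a transcription factor of clock output, measured 210, 155 and 184 CPM at 30 days, 194, 170 and 141 CPM at 60 days and 94.7, 87.5 and 82.8 CPM at 90 days (-1.05 ± 0.13, adjusted p = 0.000227). The 90-day values stood clear of both earlier time points. Tef, its relative, had 237, 208 and 215 CPM, then 181 to 188 CPM at 60 days, then 146, 133 and 112 CPM (-0.75 ± 0.11, adjusted p = 0.00077). Per3, a period gene of the repressor arm, was below its 30-day values at 60 days already, with 104, 72.0 and 77.7 CPM at 30 days, 44.9 to 55.4 CPM at 60 days and 49.4, 37.2 and 32.1 CPM at 90 days (-1.09 ± 0.16, adjusted p = 0.00201). Cry2, a cryptochrome repressor, went from 33.2, 24.1 and 25.7 CPM to 19, 16.1 and 13.6 CPM (-0.76 ± 0.15, adjusted p = 0.00674; 0.0541 without 30-day sample 1). Per2 fell by 1.14 (SE 0.20, adjusted p = 0.00884; 0.0508 without 90-day sample 2) and Usp2, a deubiquitinase under clock control, by 1.07 (SE 0.22, adjusted p = 0.0239; up to 0.0834 without 60-day sample 1, 60-day sample 3 or 90-day sample 2). Under library totals the calls of Tef, Cry2 and Per2 were lost (adjusted p = 0.0651, 0.134 and 0.101). Of the 6 genes of the opposite phase 0 were called by edgeR, with 3 at an unadjusted p under 0.05, and DESeq2 called 1. Arntl, which encodes BMAL1, had 0.832 to 1.36 CPM at 30 days and 2.23 to 4.02 CPM at 90 days, without overlap (1.29 ± 0.37, adjusted p = 0.0593).

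Promoters of 2 called members hold the motifs of this group and are shown for that reason, as the 250 bases before the RefSeq start in GRCm38.p6. Capitals mark the E-box CACGTG in Tef, in 1 of its 2 listed promoters, and the D-box in Per3, searched as TTATGTAA or TTACGTAA; both motifs were searched on both strands.
Tef, chr15:81802423-81802672, plus strand: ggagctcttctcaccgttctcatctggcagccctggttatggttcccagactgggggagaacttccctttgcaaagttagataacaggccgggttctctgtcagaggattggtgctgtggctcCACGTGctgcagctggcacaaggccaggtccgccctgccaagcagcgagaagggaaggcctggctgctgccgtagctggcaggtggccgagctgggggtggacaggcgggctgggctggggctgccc
Per3, chr4:151044666-151044915, minus strand: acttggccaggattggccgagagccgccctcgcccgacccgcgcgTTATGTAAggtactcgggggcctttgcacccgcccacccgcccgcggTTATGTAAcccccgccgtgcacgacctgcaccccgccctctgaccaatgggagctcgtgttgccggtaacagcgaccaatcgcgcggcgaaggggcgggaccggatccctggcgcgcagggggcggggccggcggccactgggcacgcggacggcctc
Of all 32851 RefSeq promoters, 6.02% hold this E-box and 0.932% this D-box. Counted by gene over the 11037 tested genes with a promoter, the shares were 9.65% and 0.761%. In the list, 11 of 12 genes matched a promoter; the E-box was found in 4 (Tef, Per1, Ciart and Bhlhe41) and the D-box in 1, Per3, which has 2 copies. Of the 5 called genes that matched, 1 holds the E-box and 1 the D-box. A match is a description of these letters and not a measured binding site.

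**Figure D4:**
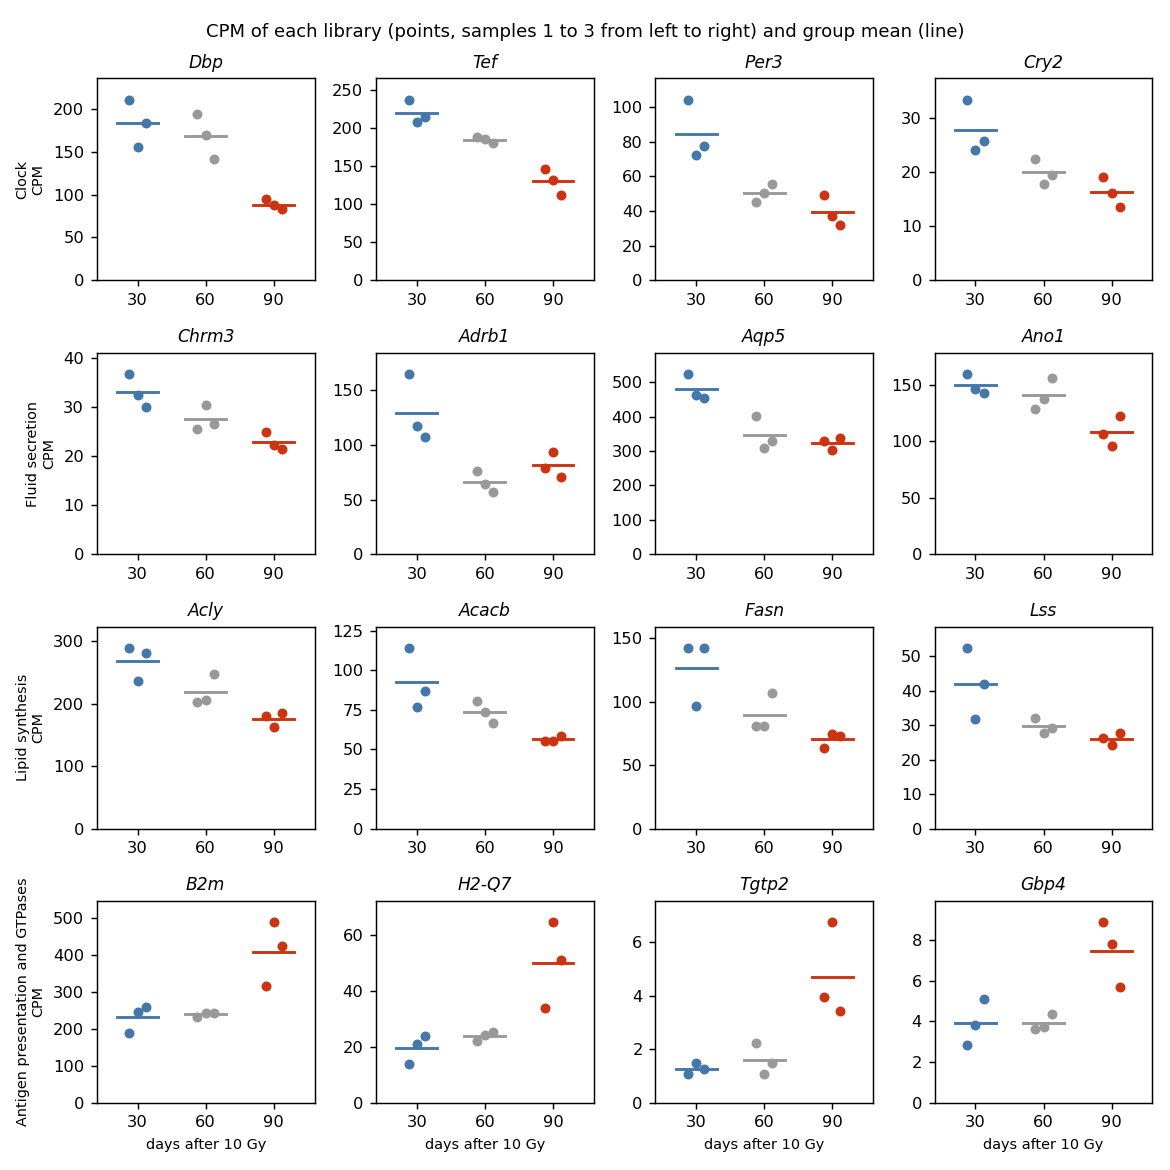
CPM after TMM scaling of 16 genes in every library (points, samples 1 to 3 from left to right in each group, with a line at the mean), by days after 10 Gy and with every vertical axis starting at 0. The rows are clock output, fluid secretion, lipid synthesis, and antigen presentation with interferon-induced GTPases. The 90-day points of the first 3 rows lie below the 30-day points and those of the last row above them.

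Some genes of lipid synthesis fell, 15.2% of the list beside 1.77% called lower over all genes tested. Of 33 tested genes of cholesterol and fatty acid synthesis 5 were called lower and 0 higher (4 by limma-voom, 6 by DESeq2), with 12 at an unadjusted p under 0.05 and a median log2 fold change of -0.26. These 5 cover both branches: Acly makes cytosolic acetyl-CoA, Acacb and Fasn carry it towards fatty acids, and Fdft1 and Lss build the sterol skeleton. Fasn measured 142, 96.2 and 142 CPM at 30 days, 80.5 to 107 CPM at 60 days and 63.6, 74.2 and 72.7 CPM at 90 days (-0.85 ± 0.15, adjusted p = 0.00416). Acly had 289, 237 and 281 CPM and then 180, 162 and 185 CPM (-0.61 ± 0.12, adjusted p = 0.00549). Acacb had 114, 76.9 and 86.6 CPM and then 55.3, 55.3 and 58.2 CPM (-0.72 ± 0.13, adjusted p = 0.00321). The groups did not overlap in these 3, whose calls held without each library. Lss lost its call (-0.69 ± 0.14, adjusted p = 0.0108) without 30-day sample 1 or 90-day sample 2, at up to 0.0756, and Fdft1 (-0.73 ± 0.18, adjusted p = 0.0319) in 6 of 9 cases (30-day samples 1 and 3, 60-day sample 2 and each 90-day sample; up to 0.162). Under library totals 0 of the 33 were called, with adjusted p of 0.0658 for Fasn, 0.0777 for Acacb and 0.178 for Acly, and the median was -0.03 beside 0.24 for all genes. The count was 3 without 30-day sample 1 or 90-day sample 2 and 8 without 30-day sample 2.

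Central energy metabolism showed few calls. They were 4.17% of the glycolysis and citric acid cycle list and 3.85% of the fatty acid oxidation list, close to the 3.57% over all genes tested. Among 48 genes of glycolysis and the citric acid cycle 2 were lower, 0 higher: Pcx, pyruvate carboxylase, from 79.5, 64.1 and 63.0 CPM to 48.9, 43.2 and 39.1 CPM (-0.65 ± 0.11, adjusted p = 0.00271), and Ldhb, a lactate dehydrogenase, from 52.8, 61.0 and 62.6 CPM to 44.6, 42.0 and 41.4 CPM (-0.46 ± 0.10, adjusted p = 0.0138). Ppargc1a, a coactivator of mitochondrial genes, was the 1 call among 26 genes of fatty acid oxidation (-0.66 ± 0.16, adjusted p = 0.0373; lost without 5 of 9 libraries: 30-day samples 1 and 2, 60-day sample 2, 90-day samples 2 and 3). All 3 calls were lost under library totals. Neither the 37 nuclear genes of respiratory complex I nor the 12 mitochondrial messenger RNAs held a call by edgeR, with 1 and 3 at an unadjusted p under 0.05, and their medians were -0.03 and -0.26. DESeq2 called 0 of the first and 1 of the second.

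Targets of p53 were lower where they were called, with 1 exception. Of 36 tested members 7 fell and 1 rose, and the median log2 fold change was -0.18. The calls are 22.2% of the list, beside 3.57% over all genes tested. Ccng1, a cyclin G that is a long-known p53 target, measured 252, 241 and 230 CPM at 30 days, 178 to 205 CPM at 60 days and 157, 151 and 164 CPM at 90 days (-0.61 ± 0.10, adjusted p = 0.002). Dcxr, a xylulose reductase, went from 68.5, 48.7 and 59.6 CPM to 27.3, 30.1 and 34.0 CPM (-0.95 ± 0.12, adjusted p = 0.000258), and Ephx1, an epoxide hydrolase, from 267, 217 and 218 CPM to 132, 138 and 139 CPM (-0.78 ± 0.11, adjusted p = 0.000567). In each of these the groups stood apart, and the calls held without each library. Eda2r, a death receptor, Phlda3, an inhibitor of AKT, Sesn2, a stress-induced regulator of mTORC1, and Aen, an apoptosis nuclease, were the other falls, by 0.66, 0.47, 0.78 and 0.55 on the log2 scale (adjusted p = 0.0123, 0.0325, 0.0225 and 0.0259). None of these 4 was called under library totals, and they lost the call in 3, 5, 4 and 5 of 9 cases (adjusted p up to 0.0693, 0.153, 0.134 and 0.122), 90-day sample 3 among them for each.

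The rise among p53 targets was Gadd45a, a stress sensor, from 7.51, 6.84 and 7.99 CPM to 9.61, 16 and 17 CPM (0.93 ± 0.22, adjusted p = 0.0225). It was not called by limma-voom (adjusted p = 0.0846) or without 30-day sample 1, 30-day sample 2, 90-day sample 2 or 90-day sample 3 (adjusted p up to 0.116). Cdkn1a, the cell cycle inhibitor p21, overlapped between groups (25.1, 19.7 and 25.0 CPM; 11.6, 24.8 and 15.2 CPM; adjusted p = 0.355). Under library totals 2 falls remained in the list, Dcxr and Ephx1, and the median was 0.05. The number of falls was 4 without 30-day sample 1, 30-day sample 3 or 90-day sample 1 and 3 without 90-day sample 3. Of 39 genes of DNA damage sensing and repair 2 fell, which is 5.13% beside 3.57% over all genes tested. They were the damage kinase Atm (-0.64 ± 0.14, adjusted p = 0.0132) and Xrra1, a gene linked to X-ray sensitivity (-1.73 ± 0.46, adjusted p = 0.0434). Under library totals neither passed (adjusted p = 0.249 and 0.0834), and the median of the list went from -0.09 to 0.14. Atm lost its call without 4 libraries and Xrra1 without 6, and the list held 0 calls without 30-day sample 1, 30-day sample 2, 90-day sample 2 or 90-day sample 3 (adjusted p of Atm up to 0.0861 and of Xrra1 up to 0.204). None of the 41 genes of S phase and mitosis was called by edgeR, DESeq2 or limma-voom, and 1 had an unadjusted p under 0.05.

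Some genes of antigen presentation and some interferon-induced GTPases rose. All 24 tested genes of MHC class I and class II presentation had positive log2 fold changes with a median of 0.52, and 4 were called higher. These 4 are 16.7% of the list, beside 1.81% called higher over all genes tested. B2m, the light chain of class I molecules (chromosome 2, 122147686 to 122153083, plus strand), measured 189, 247 and 260 CPM at 30 days, 231 to 244 CPM at 60 days and 317, 489 and 424 CPM at 90 days (0.82 ± 0.15, adjusted p = 0.0042). H2-Q7, a non-classical class I heavy chain, had 13.8, 21 and 23.9 CPM at 30 days and 33.9, 64.3 and 51.0 CPM at 90 days (1.34 ± 0.24, adjusted p = 0.0151). In both the 60-day values overlapped the 30-day values, and the 90-day values lay above both. H2-Q6 (1.01 ± 0.22, adjusted p = 0.0272) and H2-K1 (0.62 ± 0.16, adjusted p = 0.0368) were the other calls. Class I heavy chains are near-identical paralogs, so reads may be shared among them. B2m held without each library. H2-Q7 lost its call without 60-day sample 1 or 90-day sample 3 (up to 0.0562), H2-Q6 without 5 libraries (30-day samples 1 and 2, 60-day sample 1, 90-day samples 2 and 3; up to 0.0847) and H2-K1 without 5 (30-day samples 1 and 2, 60-day sample 2, 90-day samples 2 and 3; up to 0.245). The list held 1 call without 90-day sample 3 and 2 without 30-day sample 1, 30-day sample 2, 60-day sample 1 or 90-day sample 2, and 2 under library totals, where H2-Q6 and H2-K1 did not pass (adjusted p = 0.0606 and 0.076).

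Among 46 interferon-stimulated genes, 42 had positive log2 fold changes (median 0.47), and 6 were called higher, 0 lower. These 6 are 13.0% of the list, beside 1.81% called higher over all genes tested. The called genes were all GTPases that act against intracellular pathogens: Gbp2, Gbp3, Gbp4, Iigp1, Tgtp1 and Tgtp2. Tgtp2 had 1.06, 1.49 and 1.24 CPM at 30 days, 1.09 to 2.24 CPM at 60 days and 3.94, 6.74 and 3.41 CPM at 90 days, without overlap (1.89 ± 0.34, adjusted p = 0.00383), and its call held without each library. Iigp1 had 5.46, 6.6 and 7.16 CPM and then 15.3, 14.6 and 8.53 CPM (1.00 ± 0.22, adjusted p = 0.0153). Gbp4 had 2.84, 3.80 and 5.09 CPM and then 8.87, 7.80 and 5.67 CPM (0.93 ± 0.24, adjusted p = 0.0331). In Gbp2 the groups overlapped, at 14.0 CPM in 90-day sample 3 against 14.1 CPM in 30-day sample 2 (0.77 ± 0.20, adjusted p = 0.0415). Tgtp1 and Tgtp2 are near-identical neighbours and their counts are uncertain. The number of calls was 1 without 30-day sample 1 or 90-day sample 2, 3 without 30-day sample 2, 60-day sample 2 or 90-day sample 1, and 3 by limma-voom.

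Leucocyte markers are given beside these lists. The summed level of 14 tested T and NK cell markers was 10.3 to 20.1 CPM at 30 days and 21.4 to 37.6 CPM at 90 days, with the highest value in 90-day sample 2. By edgeR 0 of the 14 were called (DESeq2 called 2, limma-voom 0, and library totals 4). Cd3e, a defining T cell gene, had 3, 2 and 4 counts at 30 days and 16, 31 and 23 counts at 90 days. Cxcr6, a chemokine receptor of resident T cells, was called at 0.284 to 0.654 CPM against 1.11 to 2.16 CPM (1.91 ± 0.48, adjusted p = 0.0299; lost without 30-day sample 1 or 3 or 90-day sample 2 or 3, up to 0.147). For 20 macrophage and dendritic cell markers the sums were 258 to 472 CPM and 348 to 587 CPM, overlapping, with 0 of the 20 called by edgeR and 0 at an unadjusted p under 0.05. For 9 B and plasma cell markers the sums were 264 to 308 CPM at 30 days and 285, 667 and 319 CPM in 90-day samples 1 to 3, and the 1 call was a fall, of Derl3, an endoplasmic reticulum protein of secretory cells (-0.41 on the log2 scale, adjusted p = 0.0373; up to 0.201 without 30-day sample 1 or 2, 60-day sample 2 or any 90-day sample). Of these 9 markers 7 had positive log2 fold changes and 2 negative, with a median of 0.94, and 6 had an unadjusted p under 0.05. In counts not scaled for depth, Jchain had 49, 156 and 106 at 30 days and 387, 1529 and 337 at 90 days. Igha had 276, 847 and 473 and then 1930, 1708 and 1289, and Igkc 183, 509 and 223 and then 1285, 5939 and 852. Derl3 alone had 186 to 218 CPM at 30 days and 141 to 164 CPM at 90 days, so it weighs heavily in the sums. The part of leucocytes in the antigen presentation and GTPase results was not tested.

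Promoters of 3 of the called genes are shown because an interferon-stimulated response element is the known route of their induction. They are the 250 bases before the RefSeq start in GRCm38.p6. Capitals mark a match to the core of that element, written as GAAA, any 2 bases and GAAA again, searched on both strands; in Gbp2 it reads on the opposite strand.
B2m, chr2:122147437-122147686, plus strand: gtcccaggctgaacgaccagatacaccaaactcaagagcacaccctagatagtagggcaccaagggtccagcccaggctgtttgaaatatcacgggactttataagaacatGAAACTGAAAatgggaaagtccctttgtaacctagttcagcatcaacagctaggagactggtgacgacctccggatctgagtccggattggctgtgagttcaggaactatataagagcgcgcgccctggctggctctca
Gbp2, chr3:142620413-142620662, plus strand: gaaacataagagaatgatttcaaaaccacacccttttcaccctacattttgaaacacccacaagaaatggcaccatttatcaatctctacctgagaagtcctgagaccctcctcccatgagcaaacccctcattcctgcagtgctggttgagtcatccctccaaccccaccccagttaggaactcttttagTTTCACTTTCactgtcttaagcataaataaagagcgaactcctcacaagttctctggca
Tgtp2, chr11:49064213-49064462, minus strand: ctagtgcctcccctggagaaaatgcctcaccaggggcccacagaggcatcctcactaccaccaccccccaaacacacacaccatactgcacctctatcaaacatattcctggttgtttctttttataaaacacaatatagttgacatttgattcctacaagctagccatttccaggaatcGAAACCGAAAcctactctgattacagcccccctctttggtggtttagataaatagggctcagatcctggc
This match is in 2.98% of all 32851 RefSeq promoters, and in 3.44% of the 11037 tested genes with a promoter. In the interferon list 33 of 46 genes matched a promoter and 20 of these hold it, among them the 4 called genes that matched (Gbp2, Gbp3, Tgtp1 and Tgtp2). In the MHC list 3 of 19 matched genes hold it, and B2m is the 1 of the 4 called genes that does.

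Signalling and matrix genes gave few calls. Shares called were 2.70% for TGF-beta and BMP signalling, 1.89% for collagens and matrix assembly and 3.45% for matrix proteases and inhibitors. None of these was above the 3.57% over all genes tested, and the senescence and secretory phenotype list held 7.41%. Tgfb2, a growth factor of epithelial and fibrotic responses, rose from 56.3, 59.4 and 64.7 CPM to 82.2, 105 and 106 CPM, with 84.6 to 107 CPM at 60 days (0.70 ± 0.12, adjusted p = 0.00238; held without each library). It was the only call among 37 genes of TGF-beta and BMP signalling. Vegfa, which drives vessel growth, rose from 92.9, 96.4 and 105 CPM to 139, 137 and 158 CPM (0.56 ± 0.12, adjusted p = 0.0105; up to 0.0678 without 30-day sample 1, 30-day sample 2 or 90-day sample 3). These were the 2 rises among 27 senescence and secretory phenotype genes. Of 53 collagen and matrix assembly genes 1 was called, Thbs1, the adhesive protein thrombospondin 1 that activates latent TGF-beta, from 15.4, 24.8 and 22.3 CPM to 40.3, 79.8 and 48.4 CPM (1.43 ± 0.26, adjusted p = 0.0203; up to 0.0616 without 30-day sample 1 or 3 or 60-day sample 1 or 3). Serpinh1, a collagen chaperone, was the call among 29 matrix proteases and inhibitors (0.64 ± 0.16, adjusted p = 0.0333; up to 0.168 without 30-day sample 1 or 2, 60-day sample 2 or 90-day sample 2 or 3).

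Of 41 Wnt and Notch genes 2 rose and 2 fell, which is 9.76% beside 3.57% over all genes tested. The rises were Dkk3, a secreted Dickkopf family protein, at 2.14 to 2.78 CPM and then 5.37 to 6.37 CPM (1.18 ± 0.28, adjusted p = 0.0198), and the Wnt target Nkd1 (1.02 ± 0.21, adjusted p = 0.0108). The falls were the receptors Notch1 (-0.51 ± 0.12, adjusted p = 0.0214) and Fzd4 (-0.39 ± 0.10, adjusted p = 0.0405). Neither fall passed under library totals (adjusted p = 0.388 and 0.591), and Fzd4 was not called by limma-voom (adjusted p = 0.0509). No call remained in this list without 30-day sample 1 or without 90-day sample 2 (adjusted p up to 0.0695, 0.101, 0.104 and 0.183 over the samples left out for Nkd1, Dkk3, Notch1 and Fzd4). All 11 tested basal duct and myoepithelial markers had positive log2 fold changes (median 0.47) and 2 were called: the smooth muscle actin Actg2, from 2.06, 2.62 and 2.66 CPM to 4.96, 5.77 and 5.52 CPM (1.14 ± 0.22, adjusted p = 0.00714), and the basal cell factor Trp63, from 10.1, 9.99 and 14.1 CPM to 16.3, 27.6 and 21 CPM (0.92 ± 0.21, adjusted p = 0.0289). These 2 are 18.2% of the list, beside 1.81% called higher over all genes tested, and 9 of the 11 had an unadjusted p under 0.05. Library totals called 5, and leaving out single libraries gave 1 to 6. Actg2 held without each library. Trp63 lost its call without 5 (30-day samples 1 and 2, 60-day sample 2, 90-day samples 2 and 3; up to 0.15).

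The retinoic acid list held the largest fall among genes of at least 1 CPM. Cyp26b1, the enzyme that breaks down retinoic acid (chromosome 6, 84571414 to 84593908, minus strand), measured 6.03, 3.63 and 4.62 CPM at 30 days, 3.50, 2.71 and 2.09 CPM at 60 days and 1.38, 0.928 and 1.20 CPM at 90 days. It fell by 2.01 (SE 0.30, adjusted p = 0.000888) on the log2 scale, to 0.248 of its 30-day level, under library totals by 1.77, and held without each library. In the list of hormone response, Fkbp5, a glucocorticoid-induced co-chaperone of steroid receptors, rose from 32.5, 42.5 and 50.7 CPM to 70.6, 75.4 and 62.6 CPM (0.73 ± 0.13, adjusted p = 0.00392). The kinase Sgk1, also glucocorticoid-induced, rose by 0.55 ± 0.11 (adjusted p = 0.0113; up to 0.0982 without 30-day sample 1, 30-day sample 2 or 90-day sample 2).

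Other large falls were in genes with no common list. Kif5c, a kinesin motor best known from neurons (chromosome 2, 49619298 to 49774778, plus strand), went from 53.5, 31.7 and 29.8 CPM at 30 days through 18.1 to 27.2 CPM at 60 days to 9.51, 9.45 and 13.1 CPM at 90 days (-1.85 ± 0.25, adjusted p = 0.00253). Dtna, the scaffold dystrobrevin alpha, kept 21.9 to 31.6 CPM at 60 days and was lower at 90 days, from 36.4, 32.5 and 24.6 CPM to 12.6, 9.07 and 9.24 CPM (-1.59 ± 0.18, adjusted p = 0.000184). Ugt8a, which makes galactosylceramide, went from 12.8, 10.3 and 9.59 CPM to 4.38, 2.58 and 4.47 CPM, with 4.49 to 5.92 CPM at 60 days (-1.52 ± 0.22, adjusted p = 0.000732). The rule that named the largest falls required no overlap between 30 and 90 days, so the lack of overlap in these 3 is no further result. Each of the 3 held under library totals and without each library. Nat8, an acetyltransferase, and the linker histone gene Hist1h1e were called below 3 CPM (-1.58 ± 0.38, adjusted p = 0.0257, and -1.47 ± 0.40, adjusted p = 0.0467) and lost the call in 4 and 6 of 9 cases, 30-day sample 1 and 90-day samples 2 and 3 among them (up to 0.139 and 0.229). For Nat8 the other was 30-day sample 2, and for Hist1h1e they were 30-day sample 3, 60-day sample 2 and 90-day sample 1.

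Among rises outside the lists, Pon1, a paraoxonase, went from 5.46, 7.91 and 9.18 CPM to 17.2, 41.6 and 30.6 CPM (1.98 ± 0.34, adjusted p = 0.0183; up to 0.0935 without 30-day sample 1, 30-day sample 2 or 90-day sample 3). Klrg2, a lectin-like receptor gene, went from 0.425, 0.832 and 1.36 CPM to 3.71, 2.96 and 3.51 CPM (1.93 ± 0.34, adjusted p = 0.00317). Phkg1, the muscle catalytic subunit of phosphorylase kinase, was called at 0.178 to 0.592 CPM against 1.34 to 2.43 CPM (2.14 ± 0.47, adjusted p = 0.0145; lost without 30-day sample 2 or 90-day sample 1, up to 0.0706). Lack of overlap between the groups was part of the rule that named these 3. Klrg2 held without each library.

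**Figure D5:**
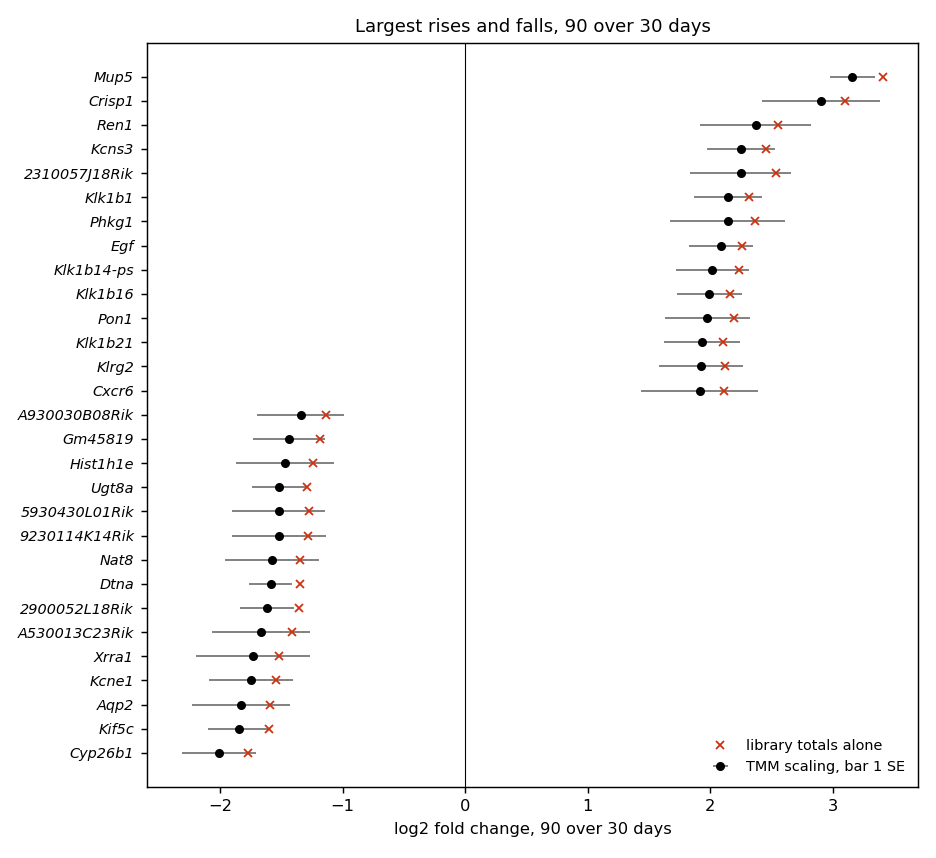
Log2 fold changes (90 over 30 days) of 14 of the largest rises and the 15 largest falls among called genes with a mean of at least 1 CPM over the 6 libraries and no overlap between groups, as black points with bars of 1 SE (TMM) and red crosses (library totals). Every cross lies to the right of its point, and Mup5 and Cyp26b1 are the ends of the range.

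Secretory machinery, antioxidant and growth factor lists gave few calls, at 5.26%, 6.45% and 2.86% of tested members beside 3.57% over all genes tested. Of 38 genes of endoplasmic reticulum folding and secretion 1 rose, the stress-induced Creld2 (0.57 ± 0.13, adjusted p = 0.0171), and 1 fell, Spdef, a transcription factor of mucous cells (-0.41 ± 0.11, adjusted p = 0.0419). Creld2 lost its call without 30-day sample 1 or 3 or 90-day sample 2 or 3 (up to 0.122), and Spdef without any 30-day sample, 60-day sample 2 or 90-day sample 2 or 3 (up to 0.202). Bhlha15, the acinar transcription factor Mist1, had 338 to 380 CPM at 30 days and 262 to 344 CPM at 90 days (-0.29 ± 0.12, adjusted p = 0.23). Among 31 antioxidant genes 2 rose: Mgst1, a microsomal glutathione transferase, from 9.36, 11.6 and 10.2 CPM to 17.8, 22.2 and 19.1 CPM (0.92 ± 0.14, adjusted p = 0.00102; held without each library), and G6pdx, which supplies NADPH (0.54 ± 0.13, adjusted p = 0.0204; up to 0.127 without 30-day sample 1 or 90-day sample 2 or 3). Etv1, a transcription factor downstream of FGF and ERK, was the 1 call among 35 genes of that pathway, lower by -0.52 ± 0.12 (adjusted p = 0.0183; up to 0.129 without 30-day sample 1 or 90-day sample 2 or 3). Imprinted growth genes held 0 calls by edgeR among 17 tested, with 4 at an unadjusted p under 0.05.

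Gene families gave a broader count. The shares called in either direction were 31.25% for serpins, 9.16% for solute carriers and 11.1% for chemokines and their receptors, beside 3.57% over all genes tested. Of 16 tested serpins 5 rose and 0 fell: Serpinb6a went from 69.3, 79.8 and 88.1 CPM to 141, 162 and 157 CPM (0.95 ± 0.12, adjusted p = 0.000255), and Serpinb6b and Serpinb9, the latter an inhibitor of granzyme B, rose by 0.91 ± 0.15 and 0.64 ± 0.12 (adjusted p = 0.00153 and 0.00469), all 3 held without each library. Among 251 solute carriers 12 rose and 11 fell. The magnesium transporter Slc41a2 went from 2.91, 4.81 and 3.49 CPM to 6.78, 11.7 and 11.4 CPM (1.40 ± 0.23, adjusted p = 0.00201), and the lysosomal transporter Slc46a3 from 73.8, 55.0 and 53.7 CPM to 37.6, 34.0 and 32.4 CPM (-0.81 ± 0.12, adjusted p = 0.00077). Both held without each library and under library totals. The 18 tested chemokines and receptors held 2 rises, Cxcr6 and the mucosal chemokine Cxcl17 (0.59 ± 0.12, adjusted p = 0.00714; 0.0517 without 90-day sample 2). The ephrin receptor Epha2 fell from 33.7, 39.0 and 33.8 CPM to 20.3, 22 and 22 CPM (-0.73 ± 0.11, adjusted p = 0.00102), a call lost under library totals (adjusted p = 0.114). Of 79 cytosolic ribosomal protein genes 0 were called, and of 342 zinc finger genes named Zfp 1 rose and 1 fell, a share below that of all genes tested.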

How the data were processed

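The values are whole-number counts per gene, deposited by the authors as 1 table; the submitters' processing notes name fastp, STAR, featureCounts and mm10. Versions, annotation release and strand setting are not given in the sources used here, so overlapping, antisense and near-identical genes are uncertain. 3 columns match no listed sample and were not used. Of 54532 gene IDs, 54409 had a symbol in a separate list of gene names, and GENCODE release 21 (GRCm38) gave positions for 54495.

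Genes with low counts were removed (filterByExpr, minimum 10), leaving 15224. All 9 libraries were fitted in edgeR 4.0.16 (R 4.3.3) with TMM scaling, a robust quasi-likelihood fit and Benjamini-Hochberg adjustment; every adjusted p is from this test unless DESeq2 1.42.0 or limma 3.58.1 (voom) is named. SE is the standard error of the log2 fold change. The fit was tested on simulated data with 200 changed genes. It recovered 70% of log2 changes of 1 and 89% of log2 changes of 2, and 8.62% of its 174 calls were false. Smaller changes were not simulated. Total counts set the counting error, and floors cover that error only and not the spread between samples. With every library thinned to the smallest total 544 genes were called, 502 of them shared with the main fit.

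The comparison and gene lists were chosen with earlier results of these data known. Named genes are the 15 largest called rises and falls (at least 1 CPM, no overlap), up to 4 called per list and 3 per family, and 8 genes of the study's question; further called or compared members were named after their values were seen. Some of these genes are not reported here.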

Additional observations from a re-analysis of the deposited data

How the results depend on the processing

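The 544 calls were recomputed under 10 alternatives and without each library in turn. Library totals alone kept 34 genes lower, and Atp2a2 turned from -0.20 to 0.029 (adjusted p = 0.93); neither value passed the test. Without a filter on low counts 1045 genes were called, 573 higher and 472 lower, over 27001 genes. A minimum absolute log2 fold change of 1 left 129 (95 higher, 34 lower). Leaving out 1 library gave 184 to 703 calls, 115 to 337 higher and 68 to 366 lower. The cause of these shifts was not tested. With a replicate block 717 genes were called, 367 higher and 350 lower; samples of the same number deviated together at correlations of 0.19, 0.05 and -0.05, so the numbers were not taken as pairs. Depth limits genes near 0.115 to 0.181 CPM, the floor of 3 counts.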

Other observations

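Amino acid metabolism was not in the lists above, and the lists here were written after the calls were seen, so their counts are descriptions. Of 27 tested genes of branched-chain amino acid breakdown 26 had negative log2 fold changes, with a median of -0.26, and 6 were called lower: Bcat2, Dbt, Bckdk, Ivd, Pcca and Mut. Bcat2, the mitochondrial transaminase that starts the pathway, had 137, 110 and 111 CPM at 30 days and 83.5, 72 and 86.5 CPM at 90 days. Under library totals 0 of them were called and the median was -0.02, and 0 were called without 30-day sample 1 or without 90-day sample 2 and 1 without 90-day sample 3. Of 40 tested genes of other amino acid and one-carbon metabolism 12 were lower and 1 higher. Gnmt, which consumes S-adenosylmethionine, went from 44.7, 28.9 and 35.6 CPM to 20.6, 16.2 and 19.6 CPM (-0.95 ± 0.17, adjusted p = 0.0062) and kept its call under library totals (adjusted p = 0.0226). The rise was Arg1, arginase, from 32.3, 42.6 and 31 CPM to 56.2, 62.9 and 57.8 CPM (0.74 ± 0.12, adjusted p = 0.0018). The falls numbered 1 under library totals, 3 without 30-day sample 1, 4 without 90-day sample 2 and 5 without 90-day sample 3.

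Among cytosolic chaperones the calls were rises. In the family of heat shock and DnaJ chaperones, taken by name, 4 of 64 tested genes were called higher and 0 lower, with a median log2 fold change of 0.061. These 4 are 6.25% of the family, beside 1.81% called higher over all genes tested. In a list written after the calls were seen, of 37 tested heat shock factor targets and Hsp90 co-chaperones, 8 were called higher and 0 lower, with a median log2 fold change of 0.14: Hspa8, Hsph1, Dnaja1, Dnajb2, Stip1, Ahsa1, Ptges3 and Fkbp5. Hsph1, a nucleotide exchange factor of Hsp70, had 13.8, 16.9 and 15.5 CPM at 30 days and 22.9, 25.8 and 32.2 CPM at 90 days (0.80 ± 0.14, adjusted p = 0.00354). Ptges3, the Hsp90 co-chaperone p23, went from 23.5, 31 and 23.7 CPM to 41.3, 42.8 and 43.1 CPM (0.70 ± 0.12, adjusted p = 0.00201). In both the groups did not overlap. The count was 9 under library totals, 4 without 30-day sample 1 or 90-day sample 3, 5 without 30-day sample 2 and 3 without 90-day sample 2.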
